A study of Mus musculus with 6 samples.

Results

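The genes described here are the mouse members of 7 solute carrier families, Slc1, Slc3, Slc6, Slc7, Slc36, Slc38 and Slc43, which together hold most of the carriers that move amino acids across the plasma membrane and the lysosomal membrane. Members were chosen by symbol alone, as every gene named Slc1a, Slc3a, Slc6a, Slc7a, Slc36a, Slc38a or Slc43a followed by a number, whatever its level. The rule found 59 members among the 18305 genes of the count tables: 7 of Slc1, 2 of Slc3, 19 of Slc6, 13 of Slc7, 4 of Slc36, 11 of Slc38 and 3 of Slc43. A further 2 genes that the rule names, Slc7a9 and Slc7a12, were not analysed here.

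Gene expression was read by RNA sequencing of 6 libraries, 2 in each of 3 groups of cultured cells, all from KM mice. MEF are untreated fibroblasts from embryos of 12.5 or 13.5 days, used at passage 3 to 5. CiLC are fibroblasts of the same kind and passages that were given small molecules, not named in the labels, starting 24 h after seeding, in a study that asked how closely such cells come to Leydig cells. LC are Leydig cells, the androgen-making cells of the testis, isolated from testis and kept for 0 to 1 passages. No transgene, Cre or knockout is named for any group, and nothing in the labels tells if the paired libraries are from different cultures or animals. The p-values thus cover the variation among these 6 libraries alone, and this can be technical.

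Amino acids cross membranes on carriers that differ in substrate and driving force. Carriers of Slc1, Slc6 and Slc38 mostly use the sodium gradient, some of Slc36 use protons, those of Slc43 allow facilitated movement, and several of Slc7 exchange one amino acid for another. Slc3 proteins are not carriers themselves: Slc3a2, the 4F2 heavy chain or CD98, is bound by a disulfide bridge to one of several Slc7 light chains and brings it to the cell surface. Several members carry other substrates, among them taurine, creatine, betaine and monoamine transmitters in Slc6 and nucleobases in Slc43, so the families are wider than the word amino acid. Many carrier genes are induced by the transcription factor Atf4 when amino acids are scarce, through a composite site for C/EBP and ATF proteins.

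The letters of that composite site, TGATGNAA, were searched on both strands in the 250 bases before each RefSeq gene start, in the RefSeq table of the build GRCm38.p6. They were present in 3.45% of 32851 windows of all genes and in 4 of 62 windows of the 42 members that the table holds. The 3 members with a match were Slc7a11, Slc7a7 and Slc6a21. The stretches of Slc7a11 and Slc7a7 are shown because both genes changed in these cells and in opposite directions between MEF and CiLC. Capitals mark the match, read on either strand, and each line runs 5′ to 3′ on the strand of the gene.
Slc7a11, chr3:50443623-50443709, minus strand, bases -96 to -10 from the start: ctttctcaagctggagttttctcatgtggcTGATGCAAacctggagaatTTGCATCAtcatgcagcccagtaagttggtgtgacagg
Slc7a7, chr14:54417908-54417952, minus strand, bases -250 to -206 from a start: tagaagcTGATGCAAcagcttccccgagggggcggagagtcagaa
Slc7a7, chr14:54418048-54418115, minus strand, bases -171 to -104 from another start: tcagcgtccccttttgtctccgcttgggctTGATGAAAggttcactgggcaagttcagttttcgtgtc
Slc7a11 holds the letters in both orientations, and each of the Slc7a7 windows holds them once. The core of the antioxidant response element, TGACNNNGC, was found in 10.2% of all windows and in 9 of 62 member windows, those of Slc38a2, Slc43a1, Slc6a11, Slc6a13, Slc6a16, Slc6a9, Slc7a1 and Slc7a6, and no match of one motif overlapped the other there. A match describes the letters only.

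The libraries held 18.44 to 18.94 M estimated reads. Levels are CPM, counts scaled to an equal library size, and values written with ± are the mean and SD of 2 libraries. Leydig markers were high in the libraries labelled LC, where Star lay at 184 and 180 CPM and Cyp11a1 at 718 and 693 CPM, but Cyp17a1 had 0 and 1 reads and Lhcgr 3 and 2 reads there, so these defining genes of mature Leydig cells were near absent. All 13 macrophage markers were read in every group, with a summed level of 8467 to 8549 CPM in MEF, 11623 to 11848 CPM in CiLC and 4136 to 4494 CPM in LC. Lyz2 carried the high CiLC sum: without it the other 12 markers summed to 5835 to 5861 CPM in MEF, 4138 to 4191 in CiLC and 1735 to 1785 in LC, and 4 of the 13 were called higher and 6 lower in CiLC against MEF. Sertoli markers summed to 12.2 to 12.4 CPM in MEF, 17.91 to 18.36 CPM in CiLC and 177 to 181 CPM in LC. Endothelial markers summed to 23.4 to 23.7, 9.21 to 9.43 and 68.1 to 76.2 CPM. Cldn11, at a mean of 118 CPM, made most of the Sertoli sum in LC. All 4 tested Sertoli markers were called higher in LC than in MEF. The endothelial sum in LC was mostly Cdh5, at a mean of 60.5 CPM, and its genes did not move together. Of these 4 genes, 2 were called higher and 1 lower in LC than in MEF. The lower one was Kdr, with means of 19.2 CPM in MEF and 9.76 in LC. Smooth muscle markers summed to 1142 to 1221 CPM in MEF, 101 to 105 in CiLC and 454 to 462 in LC, mostly from Acta2. All 3 were called lower than MEF in CiLC and in LC, beside 25.5% and 35% of all genes. The part of such cells in the results below was not tested except where a value is given, and in bulk RNA fewer cells of a type and less RNA per cell cannot be told apart.

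Most members were expressed, and the same carriers led in all groups. A mean of at least 1 CPM in some group was reached by 41 of the 59 members, and in all 3 groups by 34. Of the 59, 44 had enough reads to be tested and 15 did not, 8 of them in Slc6. The 15 had at most 13.0 estimated reads in a library and include the dopamine carrier Slc6a3, the neuronal glycine carrier Slc6a5, the GABA carrier Slc6a11, the intestinal and renal neutral amino acid carrier Slc6a19, and Slc3a1, the heavy chain of kidney and gut. Genes can be set beside each other only per length, as CPM per kilobase of exon. On that scale the taurine carrier Slc6a6 was first in MEF (124) and in CiLC (143), the heavy chain Slc3a2 first in LC (82.5), and the neutral amino acid carrier Slc38a2 second in CiLC (107) and in LC (70.2) and in the third place in MEF (81.0). The position that moved most among well-expressed members was that of Slc36a2, sixth in LC with 49.3 CPM per kilobase and below 0.1 in the other groups.

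**Figure D1:**
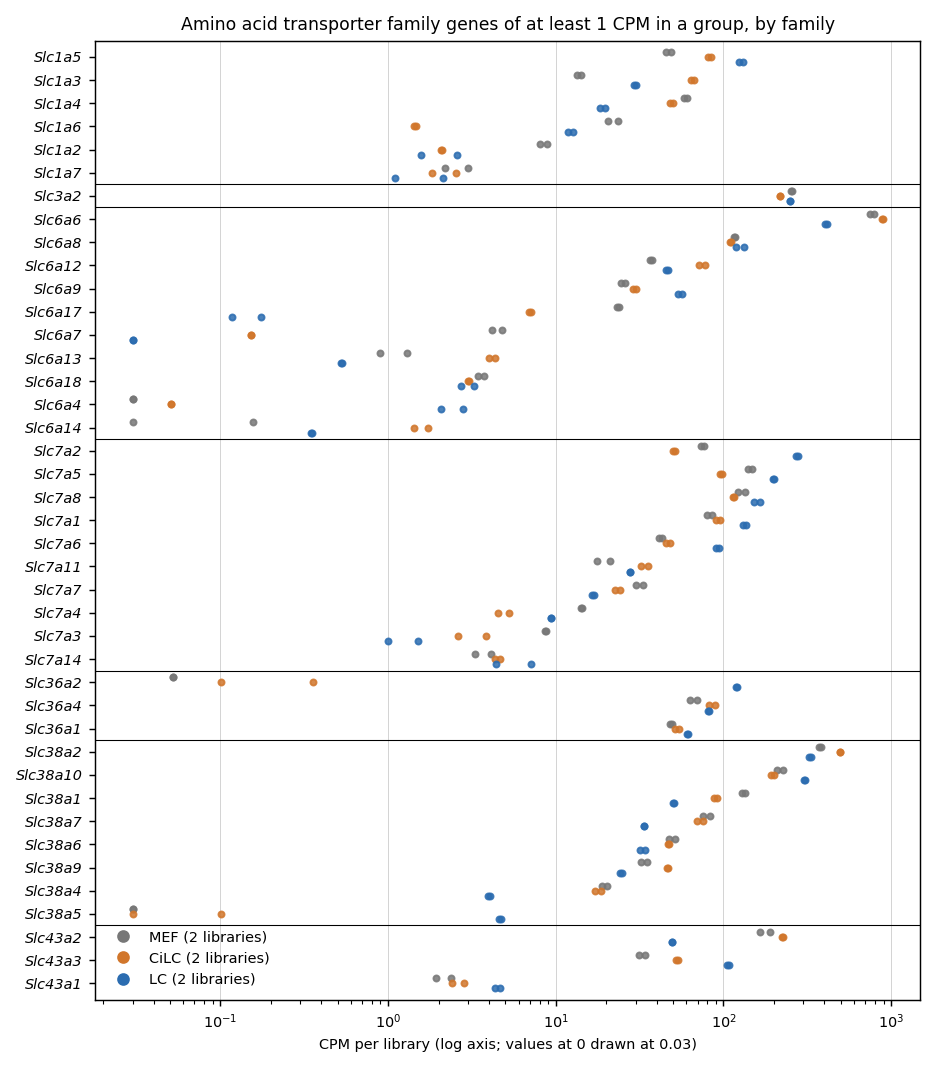
Level of each member with a mean of at least 1 CPM in a group, as CPM in each library on a log axis, grouped by family, with 2 points for each of MEF (grey), CiLC (orange) and LC (blue). In most rows the points of a group lie close together, and Slc36a2 stands near 120 CPM in LC against less than 0.4 CPM in the other 4 libraries.

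Against MEF, CiLC had 15 members higher and 14 lower at an adjusted p of 0.05, and 15 were not called. These are 65.9% of the 44 tested members, 34.1% higher and 31.8% lower, beside 51.6% of all 14581 genes tested, 26.1% higher and 25.5% lower. At least 2-fold differences were called for 4 members higher and 6 lower, or 9.1% and 13.6%, against 6.23% and 5.98% of all genes. The median log2 fold change of the members was 0.04 and that of all genes 0.01. LC differed from MEF in more members, with 22 higher, 18 lower and 4 not called, where 70.7% of all genes were called, 35.7% as higher and 35% as lower. At least 2-fold differences numbered 13 higher and 10 lower, against 14.3% and 12.9% of all genes, and the members' median was 0.20. CiLC against LC had 18 higher, 20 lower and 6 not called, beside 70.6% of all genes called, 35% as higher and 35.6% as lower, with 11 and 9 at least 2-fold, beside 11.4% and 14% of all genes. The comparisons share libraries and are given side by side only.

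The spread between the libraries of a group was small, with a common biological coefficient of variation of 3.16%, which is why small differences passed the test. If every gene had an assumed coefficient of variation of 0.4, 2 members would be called higher and 3 lower in CiLC against MEF, 5 and 7 in LC against MEF, and 5 and 6 in CiLC against LC. Among the members named below, those calls were Slc1a2, Slc1a3, Slc1a6, Slc6a7 and Slc6a14 in CiLC against MEF. In LC against MEF they were Slc1a2, Slc1a4, Slc6a4, Slc6a7, Slc6a17, Slc7a2, Slc7a3, Slc36a2, Slc38a4, Slc38a5, Slc43a2 and Slc43a3. In CiLC against LC they were Slc1a6, Slc6a4, Slc6a13, Slc6a14, Slc6a17, Slc7a2, Slc36a2, Slc38a4, Slc38a5 and Slc43a2. Of the 26, 27 and 28 calls that the rule for named members gave in these comparisons, the others were lost at that spread. Calls at that spread among genes outside the families were not counted.

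**Figure D2:**
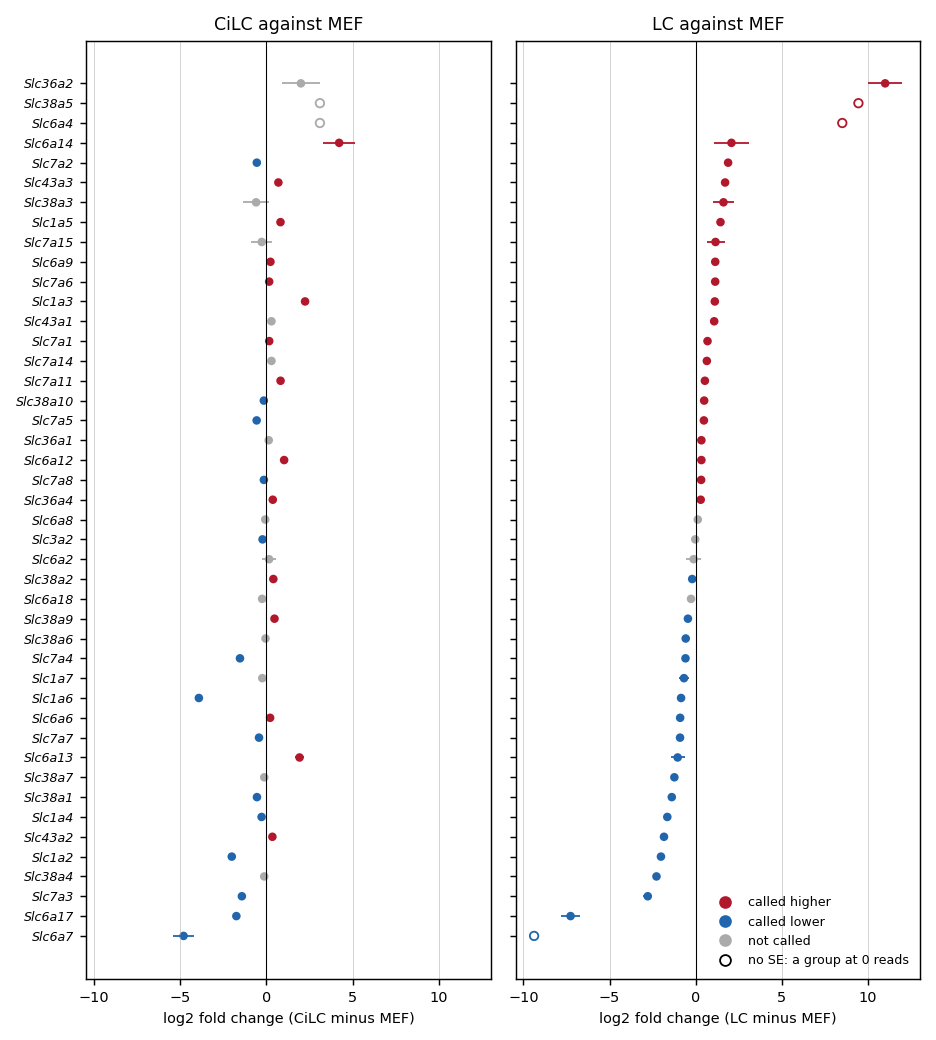
Log2 fold change of the 44 tested members in CiLC against MEF (left) and LC against MEF (right), on the same axis and ordered by the right panel, with bars for the standard error, red for members called higher, blue for lower and grey for not called. Open circles mark fits with no standard error because a group had 0 reads. The largest changes lie in the right panel, from Slc36a2 at the top to Slc6a7 at the bottom.

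In Slc1, the glutamate carrier Slc1a3 and the glutamine carrier Slc1a5 were higher in both CiLC and LC than in MEF, and Slc1a2, Slc1a4 and Slc1a6 were lower in both. Slc1a3 (NCBI gene 20512), known as GLAST, was read at 14.2 and 13.4 CPM in MEF, 63.6 and 66.6 in CiLC and 29.3 and 30.1 in LC. The 3 groups did not overlap, and CiLC stood highest. It rose 4.72-fold from MEF to CiLC (log2 2.24 ± 0.0738 SE, adjusted p = 5.91e-18) and 2.15-fold from MEF to LC (adjusted p = 1.40e-11), and was 2.19-fold higher in CiLC than in LC (adjusted p = 7.93e-14). Slc1a5 (20514), or ASCT2, exchanges glutamine and small neutral amino acids and was at 49.0 and 45.5 CPM in MEF, 81.4 and 84.5 in CiLC and 131 and 124 in LC. Here LC was highest and CiLC lay between: it rose 1.76-fold in CiLC (log2 0.81 ± 0.0579, adjusted p = 3.30e-11) and 2.70-fold in LC (log2 1.43 ± 0.0566, adjusted p = 1.41e-16), and was 1.54-fold higher in LC than in CiLC (adjusted p = 2.70e-10).

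Its close relative Slc1a4 (55963), or ASCT1, which carries serine, alanine and cysteine, went the other way. It was at 58.3 and 60.8 CPM in MEF, 50.1 and 47.8 in CiLC and 18.38 and 19.5 in LC. The fall was 1.22-fold in CiLC (adjusted p = 1.96e-04) and 3.14-fold in LC (adjusted p = 3.78e-16). Slc1a6 (20513), or EAAT4, a glutamate carrier best known from Purkinje cells, was at 20.5 and 23.6 CPM in MEF, only 1.48 and 1.42 in CiLC, and 11.8 and 12.7 in LC. It was 15.2-fold lower in CiLC than in MEF (log2 -3.92 ± 0.196, adjusted p = 2.42e-16), 1.81-fold lower in LC than in MEF (adjusted p = 7.07e-08) and 8.40-fold lower in CiLC than in LC (adjusted p = 9.05e-14), so CiLC and not LC held the lowest level. Slc1a2 (20511), the astrocyte carrier GLT-1, fell to about the same level in both, from 8.02 and 8.85 CPM in MEF to 2.09 and 2.08 in CiLC and 1.57 and 2.59 in LC. The falls were 4.04-fold (adjusted p = 3.15e-09) and 4.06-fold (adjusted p = 2.40e-09), and CiLC and LC, whose libraries overlapped, differed by a log2 of 0.01 ± 0.25 (adjusted p = 0.985).

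Carriers of cationic amino acids, which bring in arginine, lysine and ornithine, were highest in LC for Slc7a1 and Slc7a2 and lowest there for Slc7a3. Slc7a2 (11988), or CAT2, was at 76.2 and 73.2 CPM in MEF, 51.2 and 50.1 in CiLC and 271 and 277 in LC. CiLC moved away from LC: it fell 1.48-fold from MEF to CiLC (log2 -0.56 ± 0.0554, adjusted p = 9.56e-09) and rose 3.67-fold from MEF to LC (log2 1.88 ± 0.0487, adjusted p = 4.98e-20). The gap between CiLC and LC was 5.42-fold (log2 -2.44 ± 0.0513, adjusted p = 1.09e-21). Slc7a1 (11987), or CAT1, the carrier most cells use for arginine, was at 80.2 and 86.0 CPM in MEF, 94.7 and 90.7 in CiLC and 131 and 136 in LC. It was 1.60-fold higher in LC than in MEF (adjusted p = 4.85e-11), while the 1.12-fold rise in CiLC (adjusted p = 0.0159) was lost with DESeq2 (adjusted p = 0.0868), without MEF replicate 1 (0.179) and without CiLC replicate 1 (0.166). Slc7a3 (11989), or CAT3, better known from brain, fell from 8.65 and 8.74 CPM in MEF to 2.60 and 3.85 in CiLC, or 2.69-fold (adjusted p = 2.53e-07), and to 1.51 and 1.00 in LC, or 6.89-fold (adjusted p = 6.82e-11). Slc7a4 (224022), a relative for which transport has not been clearly shown, fell from 14.1 and 14.3 CPM in MEF to 5.24 and 4.51 in CiLC, or 2.91-fold (adjusted p = 1.47e-10), with 9.34 and 9.42 in LC between them.

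Genes that make or use arginine inside the cell, named after their values were seen, did not share 1 order. Arg1, the arginase that makes ornithine and urea, was at 2.10 and 2.08 CPM in MEF, 0.560 and 0.710 in CiLC and 496 and 457 in LC, a rise of 227-fold from MEF to LC (adjusted p = 1.33e-26) and a fall of 3.27-fold from MEF to CiLC (adjusted p = 5.03e-05). Nos2, the inducible nitric oxide synthase, was at 0 and 0.156 CPM in MEF, 11.6 and 8.16 in CiLC and 68.9 and 71.3 in LC. With only 3 reads in MEF, the ratio of reads was 126 for CiLC over MEF, with a 95% counting interval of 42.7 to 613, and 895 for LC over MEF, with 306 to 4342. Ass1, which remakes arginine from citrulline, rose 1.86-fold in CiLC (adjusted p = 1.88e-12) and 2.42-fold in LC (adjusted p = 5.40e-16), from 43.5 and 42.3 CPM in MEF. Odc1, the first enzyme of polyamine synthesis from ornithine, was 1.26-fold lower in CiLC (adjusted p = 1.21e-05) and 1.38-fold higher in LC than in MEF (adjusted p = 2.08e-08). Arg2, the mitochondrial arginase, was low, at 0.367 and 0.468 CPM in MEF, 1.98 and 2.18 in CiLC and 1.68 and 1.24 in LC, and rose in both CiLC (4.92-fold, adjusted p = 1.34e-05) and LC (3.45-fold, adjusted p = 3.74e-04). Gatm, which starts creatine synthesis from arginine, was 2.81-fold lower in CiLC (adjusted p = 7.70e-16) and 1.12-fold higher in LC than in MEF (adjusted p = 0.0101). Arg1 and Nos2 are also expressed by activated macrophages, and the general macrophage markers do not measure activation. Of the 13 markers, 10 were called lower in LC than in MEF, and Adgre1, at 173 and 160 CPM in MEF and 186 and 182 in LC, was called higher. The part of macrophages in the levels of Arg1 and Nos2 was not tested.

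**Figure D3:**
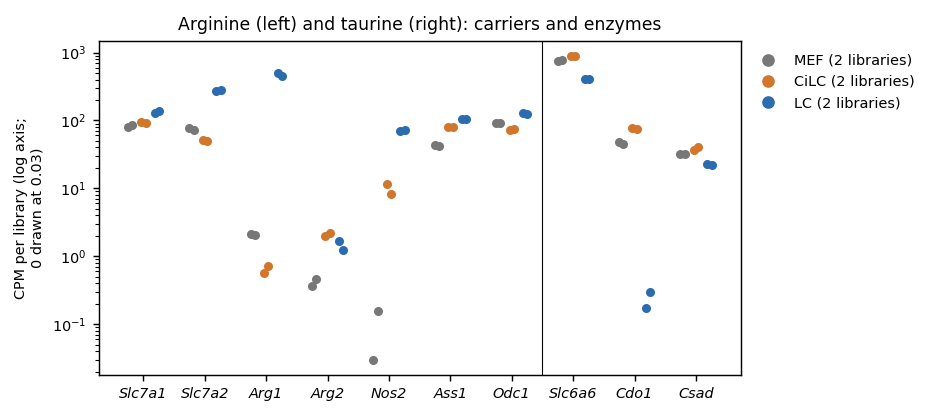
CPM in each library on a log axis for the arginine carriers Slc7a1 and Slc7a2 and genes of arginine use (left of the line), and for the taurine carrier Slc6a6 and genes of taurine synthesis (right), with 2 points per group. Slc7a2, Arg1 and Nos2 are highest in LC, where Slc6a6 and Csad are lowest and Cdo1 is near 0.

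The heavy chain Slc3a2 differed little between groups, and most of its light chains differed more. Slc3a2 (17254) was at 251 and 257 CPM in MEF, 217 and 217 in CiLC and 249 and 249 in LC. It fell 1.17-fold from MEF to CiLC (log2 -0.23 ± 0.0447, adjusted p = 1.61e-04) and was not called between LC and MEF (log2 -0.03 ± 0.0447, adjusted p = 0.580). CiLC were 1.15-fold below LC (adjusted p = 4.30e-04), and that direction turned (log2 0.02, adjusted p = 0.768) when libraries were scaled by their totals only. The light chain Slc7a5 (20539), or LAT1, which takes up leucine and other large neutral amino acids, was at 140 and 147 CPM in MEF, 95.2 and 98.2 in CiLC and 198 and 201 in LC. CiLC and LC lay on opposite sides of MEF: it fell 1.48-fold in CiLC (log2 -0.57 ± 0.0497, adjusted p = 1.19e-09) and rose 1.39-fold in LC (log2 0.47 ± 0.0475, adjusted p = 6.11e-09), a gap of 2.06-fold (adjusted p = 5.74e-15). Slc7a8, or LAT2, with a similar range of substrates, had the same order, with 158 ± 8.71 CPM in LC, 128 ± 9.04 in MEF and 115 ± 1.48 in CiLC.

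The y+L light chains, which trade cationic for neutral amino acids, went apart. Slc7a6 (330836), or y+LAT2, was at 41.2 and 42.99 CPM in MEF, 48.1 and 45.6 in CiLC and 93.6 and 90.2 in LC, a rise of 2.19-fold from MEF to LC (log2 1.13 ± 0.0568, adjusted p = 1.65e-14). Slc7a7 (20540), or y+LAT1, whose loss causes lysinuric protein intolerance and which is also known from macrophages, was at 30.1 and 32.9 CPM in MEF, 22.6 and 24.0 in CiLC and 17.0 and 16.5 in LC. It fell 1.35-fold in CiLC (adjusted p = 2.87e-05) and 1.88-fold in LC (adjusted p = 5.55e-10). The 12 macrophage markers other than Lyz2 had the same order of summed levels, MEF above CiLC above LC, while the sum with Lyz2 was highest in CiLC, and the part of macrophages in the level of Slc7a7 was not tested.

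Slc7a11 (26570), or xCT, which takes up cystine in exchange for glutamate and so feeds glutathione synthesis, was at 20.9 and 17.5 CPM in MEF, 35.5 and 32.3 in CiLC and 27.7 and 27.8 in LC. CiLC stood highest and MEF lowest, with no overlap. Against MEF it rose 1.76-fold in CiLC (adjusted p = 1.13e-08) and 1.44-fold in LC (log2 0.53 ± 0.086, adjusted p = 8.63e-06). The 1.22-fold step from LC to CiLC (adjusted p = 0.00231) was lost without CiLC replicate 1 (adjusted p = 0.0509) and with DESeq2 (0.0575). Gclc, the catalytic subunit of the first enzyme of glutathione synthesis, had another order, with LC highest. It was at 32.6 and 30.2 CPM in MEF, 29.5 and 28.8 in CiLC and 93.4 and 94.7 in LC. CiLC were 3.22-fold below LC (adjusted p = 1.58e-17) and were not called against MEF (adjusted p = 0.199). Gclm, the modifier subunit of that enzyme, was like Slc7a11 higher than MEF in both CiLC (1.499-fold, to 23.6 ± 1.46 CPM) and LC (1.41-fold, to 22.3 ± 0.238 CPM), and was not called between them (adjusted p = 0.340).

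On the scale of CPM per kilobase of exon, the 6 light chains that pair with Slc3a2 summed to 97.3 ± 4.61 in MEF, 80.5 ± 0.593 in CiLC and 129 ± 2.00 in LC. Their ratio to Slc3a2 was 1.13 and 1.18 in MEF, 1.11 and 1.13 in CiLC and 1.55 and 1.58 in LC. The MEF and CiLC libraries lay close together, and both LC libraries were higher. Slc7a5 made 42.0% ± 0.389 of the light chain sum in MEF, 34.2% ± 0.516 in CiLC and 43.9% ± 0.184 in LC, and Slc7a11 2.02% ± 0.347, 4.28% ± 0.318 and 2.18% ± 0.0283. With 2 libraries against 2, an exact permutation test cannot give a p below 0.333, and these sums were not tested.

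**Figure D4:**
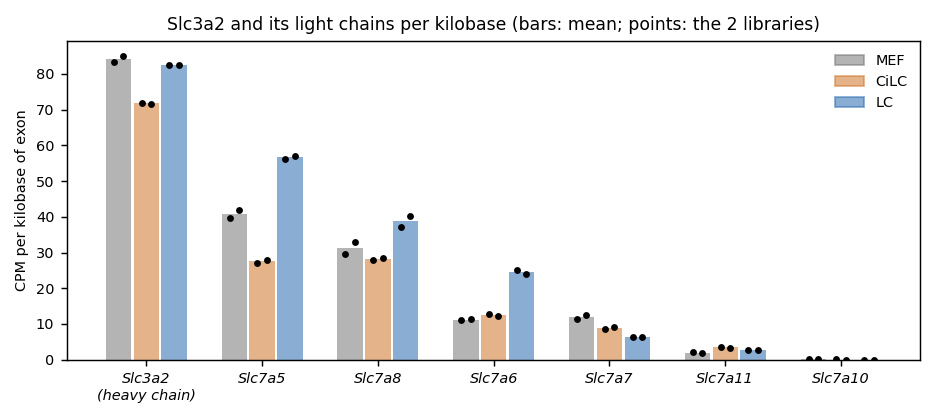
CPM per kilobase of exon for the heavy chain Slc3a2 and the 6 light chains that bind it, with bars for the mean of each group and points for the 2 libraries. The heavy chain is similar in the 3 groups, while Slc7a5, Slc7a8 and Slc7a6 are highest in LC.

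In Slc6 the taurine carrier Slc6a6 held most of the family's reads. Of 11 tested members, 5 were called higher and 2 lower in CiLC against MEF, and 4 higher and 4 lower in LC than in MEF, beside 26.1%, 25.5%, 35.7% and 35% of all genes. Slc6a6 (21366), which takes up taurine, was at 743 and 787 CPM in MEF, 892 and 878 in CiLC and 404 and 412 in LC. The groups did not overlap. It rose 1.16-fold in CiLC (log2 0.21 ± 0.0453, adjusted p = 4.43e-04) and fell 1.87-fold in LC (log2 -0.91 ± 0.0463, adjusted p = 2.77e-14), so that CiLC were 2.17-fold above LC (adjusted p = 5.62e-16). The enzymes that make taurine from cysteine had the same order of groups. Cdo1, cysteine dioxygenase, was at 47.9 and 44.9 CPM in MEF, 78.1 and 76.0 in CiLC and 0.174 and 0.294 in LC, 1.66-fold higher in CiLC (adjusted p = 1.22e-10) and 193-fold lower in LC than in MEF (adjusted p = 2.87e-21). Csad, the decarboxylase after it, rose 1.19-fold in CiLC (adjusted p = 0.00206) and fell 1.47-fold in LC (adjusted p = 4.06e-07).

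The betaine and GABA carrier Slc6a12 (14411), known for its part in osmotic balance, was at 37.2 and 36.2 CPM in MEF, 71.3 and 77.9 in CiLC and 45.6 and 46.4 in LC. It rose 2.03-fold in CiLC (log2 1.02 ± 0.0602, adjusted p = 9.13e-13) and 1.25-fold in LC (adjusted p = 1.05e-04), and CiLC were 1.62-fold above LC (adjusted p = 2.87e-10). The related GABA and taurine carrier Slc6a13 (14412) was at 0.891 and 1.30 CPM in MEF, 4.33 and 4.01 in CiLC and 0.522 and 0.530 in LC. CiLC again stood highest, 3.78-fold above MEF (log2 1.92 ± 0.277, adjusted p = 1.51e-06) and 7.84-fold above LC (log2 2.97 ± 0.368, adjusted p = 1.20e-08). The 2.07-fold lower level of LC than MEF (adjusted p = 0.0213) was lost with DESeq2 (0.102) and without MEF replicate 2 (0.170), LC replicate 1 (0.0764) or LC replicate 2 (0.0715). Slc6a14 (56774), a carrier of neutral and cationic amino acids with a very broad range, had 3 and 0 reads in MEF, 28 and 34 in CiLC and 6 and 6 in LC. CiLC stood highest again, with a ratio of reads of 20.1 over MEF (95% counting interval 6.57 to 100) and a fitted fold of 4.43 over LC (adjusted p = 2.90e-04). The log2 fold change against MEF, fitted as 4.22 ± 0.924 (adjusted p = 4.03e-06), was 7.88 without MEF replicate 1 and 3.27 without MEF replicate 2.

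Slc6a17 and Slc6a7, best known from the nervous system, fell. Slc6a17 (229706), a carrier of neutral amino acids in synaptic vesicles, was at 23.3 and 23.7 CPM in MEF, 7.07 and 6.90 in CiLC and 0.174 and 0.118 in LC. The groups did not overlap, and it fell 3.36-fold from MEF to CiLC (log2 -1.75 ± 0.104, adjusted p = 6.67e-13) and 154-fold from MEF to LC (log2 -7.26 ± 0.573, adjusted p = 1.03e-18). Slc6a7 (240332), a proline carrier of brain synapses, had 79.0 and 92.1 reads in MEF, 3.08 and 3.00 in CiLC and none in LC. It was 28.1-fold lower in CiLC (log2 -4.81 ± 0.592, adjusted p = 5.55e-10), and at least 51.0-fold lower in LC than in MEF, taking 3 reads in a group as the floor. The serotonin carrier Slc6a4 (15567) went the other way, with no read in MEF, 1 and 1 in CiLC and 48 and 35 in LC. It was at least 30.9-fold higher in LC than in MEF (adjusted p = 8.44e-09), and LC over CiLC the ratio of reads was 47.7 (95% counting interval 12.8 to 401).

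The glycine carrier Slc6a9 (14664), or GlyT1, was at 24.5 and 25.8 CPM in MEF, 28.9 and 29.97 in CiLC and 53.3 and 56.7 in LC. It rose 2.19-fold in LC (log2 1.13 ± 0.0659, adjusted p = 2.45e-13). The 1.17-fold rise in CiLC (adjusted p = 0.00896) was lost with DESeq2 (0.113), without MEF replicate 1 (0.0749) and without CiLC replicate 2 (0.0770). The creatine carrier Slc6a8 was among the steadiest members, with 126 ± 9.07 CPM in LC, 116 ± 0.526 in MEF and 110 ± 1.74 in CiLC, and only CiLC against LC was called (1.14-fold, adjusted p = 0.00279).

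The widest gap of any member was that of Slc36a2 (246049), a proton-coupled carrier of glycine, proline and alanine, in LC. It was at 121 and 119 CPM in LC, from 2083 and 2020 estimated reads, against 0.0524 and 0.0521 CPM in MEF and 0.356 and 0.101 in CiLC. All 4 fibroblast-derived libraries held fewer than 8 estimated reads. The ratio of reads was 2294 for LC over MEF, with a 95% counting interval of 635 to 18952 (fitted log2 10.99 ± 0.978, adjusted p = 2.91e-24). Against LC, CiLC were lower by a log2 of -8.99 ± 0.463 (adjusted p = 3.85e-24), which was -10.11 without CiLC replicate 1 and -8.36 without CiLC replicate 2. CiLC against MEF was not called (adjusted p = 0.0658). The values of Slc36a2 are not whole in any library, as where reads are split between similar genes, and its relative Slc36a3 had no read in MEF or CiLC and at most 0.177 CPM in LC. Slc36a1 (215335), or PAT1, which exports small amino acids from lysosomes, was at 49.1 and 47.8 CPM in MEF, 51.6 and 54.5 in CiLC and 61.1 and 60.4 in LC, 1.25-fold higher in LC than in MEF (adjusted p = 2.32e-05). Between CiLC and MEF it was not called (log2 0.13 ± 0.0571, adjusted p = 0.0624), and its 1.15-fold lower level in CiLC than in LC (adjusted p = 0.00351) was lost without CiLC replicate 1 (adjusted p = 0.0700) and turned with library totals only (log2 0.02, adjusted p = 0.785). Slc36a4 (234967), a high-affinity carrier of the same family, was at 69.5 and 63.1 CPM in MEF, 88.5 and 82.3 in CiLC and 81.5 and 80.3 in LC, and rose 1.29-fold in CiLC (adjusted p = 9.95e-06).

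The Slc38 family holds sodium-coupled carriers that load cells with glutamine and alanine, and also lysosomal members. Of its 9 tested members, 6 were called lower and 3 higher in LC than in MEF, beside 35% and 35.7% of all genes. Slc38a2 (67760), or SNAT2, which is induced by amino acid shortage, was at 384 and 371 CPM in MEF, 496 and 499 in CiLC and 322 and 332 in LC. CiLC stood highest, 1.32-fold above MEF (log2 0.40 ± 0.0446, adjusted p = 8.36e-08) and 1.52-fold above LC (adjusted p = 3.29e-11), and LC were 1.15-fold below MEF (adjusted p = 3.10e-04). Slc38a1 (105727), or SNAT1, was at 129 and 135 CPM in MEF, 91.7 and 88.0 in CiLC and 49.7 and 50.9 in LC. It fell at both steps, 1.47-fold in CiLC (log2 -0.55 ± 0.0492, adjusted p = 1.68e-09) and 2.62-fold in LC (log2 -1.39 ± 0.0543, adjusted p = 1.10e-16). Slc38a4 (69354), or SNAT4, was at 20.1 and 18.8 CPM in MEF, 17.1 and 18.5 in CiLC and 4.06 and 3.94 in LC, 4.86-fold lower in LC than in MEF (log2 -2.28 ± 0.133, adjusted p = 4.69e-14), and was not called between CiLC and MEF (log2 -0.13 ± 0.0884, adjusted p = 0.230).

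The members higher in LC were Slc38a10 and the glutamine carriers Slc38a5 and Slc38a3 of the N system, which also move protons. Slc38a5 (209837), or SNAT5, had no read in MEF, 0 and 2 in CiLC and 81 and 78 in LC, at least 59.3-fold higher in LC than in MEF (adjusted p = 8.73e-11). The ratio of reads of LC over CiLC was 91.4 (95% counting interval 24.9 to 762), and the fitted log2 of CiLC against LC, -6.34 ± 1.05, was -5.42 without CiLC replicate 1 and -9.42 without CiLC replicate 2. Slc38a3, or SNAT3, had 4 and 5 reads in MEF, 3 and 3 in CiLC and 12 and 13 in LC, also higher in LC than in MEF (adjusted p = 0.0119). Slc38a10, a widely expressed member of less clear role, rose 1.40-fold in LC, to 305 ± 2.48 CPM (adjusted p = 4.05e-09). Glul, the enzyme that makes glutamine, was at 105 and 102 CPM in MEF, 180 and 176 in CiLC and 521 and 504 in LC, 4.96-fold higher in LC than in MEF (adjusted p = 8.38e-22).

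The lysosomal members Slc38a9 and Slc38a7 were lowest in LC. Slc38a9 (268706), which senses lysosomal arginine for the kinase complex mTORC1, was at 32.3 and 35.0 CPM in MEF, 46.9 and 45.9 in CiLC and 24.9 and 24.2 in LC. It rose 1.38-fold in CiLC (log2 0.46 ± 0.0623, adjusted p = 1.22e-06) and fell 1.37-fold in LC (log2 -0.46 ± 0.0708, adjusted p = 4.73e-06), so that the 2 groups lay on opposite sides of MEF with a gap of 1.89-fold (adjusted p = 2.11e-11). Slc38a7 (234595), which exports glutamine and asparagine from lysosomes, was at 75.5 and 83.0 CPM in MEF, 69.1 and 75.8 in CiLC and 33.5 and 33.5 in LC. MEF and CiLC overlapped and were not called apart (adjusted p = 0.0680), and LC were 2.36-fold below MEF (log2 -1.24 ± 0.0671, adjusted p = 5.20e-14).

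The Slc43 members moved in opposite directions in LC. Slc43a2 (215113), or LAT4, a facilitated carrier of leucine, phenylalanine and methionine, was at 164 and 190 CPM in MEF, 222 and 227 in CiLC and 49.2 and 49.4 in LC. It rose 1.27-fold in CiLC (log2 0.34 ± 0.0541, adjusted p = 1.21e-05) and fell 3.59-fold in LC (log2 -1.84 ± 0.0643, adjusted p = 1.12e-17), and CiLC were 4.55-fold above LC (log2 2.19 ± 0.0636, adjusted p = 4.03e-19). Slc43a3 (58207), a carrier of purine nucleobases, was at 31.5 and 33.8 CPM in MEF, 52.1 and 53.3 in CiLC and 108 and 105 in LC. CiLC lay between: the rise was 1.61-fold in CiLC (log2 0.69 ± 0.0618, adjusted p = 1.73e-09) and 3.25-fold in LC (log2 1.70 ± 0.0587, adjusted p = 8.16e-18). Slc43a1 (72401), or LAT3, was low, at 2.36 and 1.93 CPM in MEF, 2.39 and 2.84 in CiLC and 4.35 and 4.65 in LC, and LC stood above MEF (2.10-fold, adjusted p = 8.33e-05) and above CiLC (1.72-fold, adjusted p = 0.00136).

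Summed over all 59 members, the level was 1.07 times MEF in CiLC and 1.01 times MEF in LC, while single families differed more. The sum was 3394 ± 1.14 CPM in CiLC, 3209 ± 32.03 in LC and 3169 ± 78.7 in MEF, and the libraries of LC and MEF overlapped. With library totals only, CiLC were at 1.12 and LC at 0.914 times MEF. Without Slc6a6 they were at 1.04 and 1.16 times MEF, so the near-equal totals depend on the scaling and on 1 gene. Slc7 summed to 919 ± 18.2 CPM in LC, 549 ± 16.9 in MEF and 472 ± 2.60 in CiLC, 1.67 times MEF in LC and 0.86 times MEF in CiLC. Slc7a2 alone, at 274 CPM in LC and 74.7 in MEF, made a large part of that LC gain, and no sum without it was taken. Slc36 was 2.28 times MEF in LC, at 262 ± 2.62 CPM against 115 ± 5.41, and 1.21 times MEF in CiLC. Both sums were higher in LC than in the other groups, with no overlap between libraries, but without Slc36a2 the Slc36 sum in LC was 1.24 times MEF, at 142 CPM against 115, and close to the 138 CPM of CiLC.

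Slc6 stood the other way, with 1117 ± 3.04 CPM in CiLC, 977 ± 33.5 in MEF and 643 ± 16.8 in LC. Slc6a6 alone took 77.9% and 78.7% of the Slc6 reads in MEF, 79.8% and 78.8% in CiLC and 64.1% and 62.9% in LC, and without it the sum in LC was 1.11 times that in MEF in place of 0.658 times. Slc38 went from 909 ± 9.66 CPM in MEF to 967 ± 0.0985 in CiLC and 783 ± 2.91 in LC. The higher CiLC value rests on Slc38a2: without it the sum was 531 ± 19.1 CPM in MEF and 469 ± 1.91 in CiLC, or 0.884 times MEF. Slc43 was 1.32 times MEF in CiLC and 0.756 times MEF in LC, the latter turning to 3.18 times without Slc43a2, and the LC value of Slc1, 1.25 times MEF, turned to 0.607 times without Slc1a5. These LC values of Slc6, Slc43 and Slc1, and that of Slc36, thus rest on 1 member each, and no test was made of the sums. All family sums are of CPM and not per length, so longer genes weigh more in them. Per kilobase of exon, Slc43a2 was at 24.6 in MEF and 6.85 in LC, and Slc43a3 at 12.6 in MEF and 41.2 in LC. On that scale Slc43a3 gained more than Slc43a2 lost, so the lower Slc43 sum in LC holds for CPM only.

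**Figure D5:**
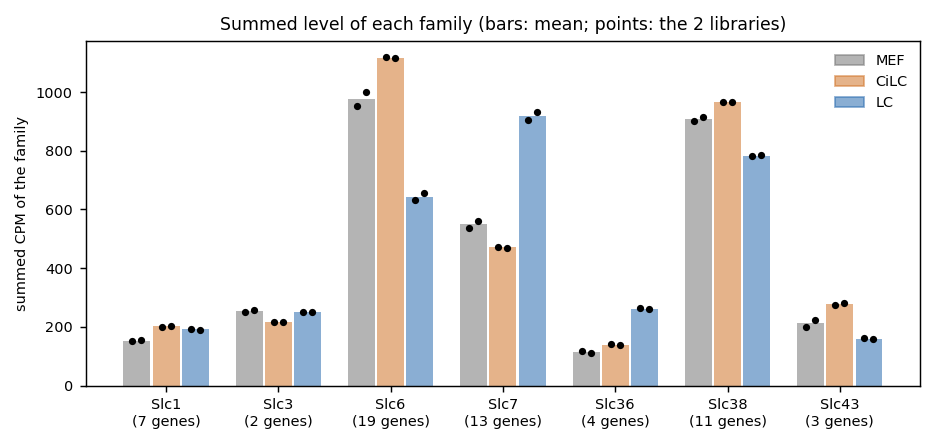
Summed CPM of all members of each of the 7 families, with bars for the mean of MEF, CiLC and LC and points for the 2 libraries of each. Slc7 and Slc36 are highest in LC, and Slc6, Slc38 and Slc43 are highest in CiLC and lowest in LC. The sums are not per length, so longer genes weigh more.

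Other genes of the amino acid response and of amino acid sensing were read from lists of their own. Of 22 tested genes of the Atf4 response, 8 were called above and 8 below MEF in CiLC (36.4% each, beside 26.1% and 25.5% of all genes), and 10 above and 10 below in LC (45.5% each, beside 35.7% and 35%), with medians of 0.02 and -0.02 on the log2 scale. Atf4 itself was at 181 and 186 CPM in MEF, 231 and 231 in CiLC and 271 and 256 in LC, 1.26-fold higher in CiLC (adjusted p = 2.68e-06) and 1.44-fold in LC (adjusted p = 9.46e-10). Its target Asns, asparagine synthetase, did not share that order: it was 1.26-fold higher in CiLC (adjusted p = 1.03e-05) and 1.60-fold lower in LC than in MEF (adjusted p = 2.45e-10). Ddit4, an inhibitor of mTORC1 signalling, rose 5.28-fold in LC (adjusted p = 1.23e-19), and Stc2, a secreted glycoprotein, rose 2.76-fold in CiLC (adjusted p = 2.91e-10) and 5.52-fold in LC (adjusted p = 1.07e-15).

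A list of 28 genes covered amino acid sensing and mTORC1 signalling, with Mtor, Rptor, Rheb, Tsc1, Tsc2, Tfeb and Tfe3 beside the sensors. Of these 28, 2 were called above and 9 below MEF in CiLC (7.1% and 32.1%, beside 26.1% and 25.5% of all genes), and 6 above and 13 below in LC (21.4% and 46.4%, beside 35.7% and 35%). CiLC against LC had 11 above and 6 below (39.3% and 21.4%, beside 35% and 35.6%). Fnip2, a partner of folliculin in the control of Rag GTPases, fell from 124 and 135 CPM in MEF to 67.5 and 69.4 in CiLC, or 1.89-fold (adjusted p = 7.65e-13), and to 37.5 and 39.3 in LC, or 3.37-fold (adjusted p = 6.50e-18). Its relative Fnip1 went the other way in CiLC, from 85.6 and 75.3 CPM in MEF to 111 and 106, or 1.35-fold (adjusted p = 2.39e-06). In LC Fnip1 was 1.47-fold lower than in MEF (adjusted p = 9.61e-08). Castor1, a cytosolic arginine sensor, fell 1.69-fold in CiLC (adjusted p = 3.62e-06). The kinase gene Mtor was not called between CiLC and MEF (adjusted p = 0.331) and was 1.29-fold higher in LC (adjusted p = 1.81e-06). Of 30 tested genes of amino acid metabolism, 11 were called higher and 7 lower in CiLC against MEF (36.7% and 23.3%, beside 26.1% and 25.5% of all genes), and 20 higher and 6 lower in LC (66.7% and 20%, beside 35.7% and 35%), with medians of 0.10 and 0.46.

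Carriers outside the 7 families, of 18 tested, numbered 5 called higher and 2 lower in CiLC against MEF (27.8% and 11.1%, beside 26.1% and 25.5% of all genes), and 7 higher and 8 lower in LC (38.9% and 44.4%, beside 35.7% and 35%). Among them, Slc16a10, or TAT1, which carries aromatic amino acids, was at 42.99 and 45.2 CPM in MEF, 56.0 and 51.9 in CiLC and 15.02 and 14.2 in LC. It rose 1.22-fold in CiLC (adjusted p = 2.57e-04) and fell 3.01-fold in LC (adjusted p = 7.63e-15).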

How the data were processed

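RNA was sequenced on a BGISEQ-500 instrument, per the labels' protocols. Per the file headers, the authors deposited expected counts (estimates of the reads from each gene). Per the submitters' processing notes reads were aligned with HISAT to mm9. For the aligner version, the counting tool, the annotation and strandedness the entry is: not given in the sources used here. Between 32.4% and 32.8% of values per library were not whole, also in 30 of the 59 members, where reads may be split between similar genes. Exon lengths of the members are those of the merged exons of protein-coding genes in the GENCODE basic annotation, matched by gene number. Symbols came from the RefSeq table of GRCm38.p6, matched by gene number for 18179 of 18305 genes. Since its build is not that of the counts, positions are given only for its own promoter sequences.

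Expected counts were rounded and tested with edgeR 4.0.16 (R 4.3.3): genes kept by filterByExpr (at least 10 reads, 15 in total; 14581 genes), trimmed-mean scaling, 1 quasi-likelihood fit of the 6 libraries by group, two-sided, Benjamini-Hochberg adjustment over all genes tested, called at 0.05. Fold changes use a prior count of 0.125. A group at 0 was given a floor of 3 reads summed over its libraries, and floors and intervals cover counting error only. The replicates of each group differed by more than sampling noise (chi-square per degree of freedom 1.80 to 2.94) and all were kept. Replicate numbers did not pair libraries.

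Members and lists were chosen with earlier results of these data known. Named members are 14 core carriers in every comparison and up to 20 called members with the largest fold change and at least 1 CPM in a group, and from other lists up to 4 called genes. Slc6a8, Slc7a8, Slc38a3 and Slc38a10, Gclm, and the enzymes of arginine and taurine use, were named beyond that rule after their values were seen. A few genes covered by it are left unreported. Alternatives were DESeq2 1.42.0, other scalings, filters, rounding, assumed spreads, a replicate block and single libraries left out; sums without Lyz2 and without Slc36a2 were added after seeing the data. The procedure was tested on simulated data.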

Additional observations from a re-analysis of the deposited data

How the results depend on the processing

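With libraries scaled by their totals only, the median log2 fold change of all genes moved to 0.0723 in CiLC against MEF, -0.156 in LC against MEF and 0.219 in CiLC against LC, so small changes are to be read relative to these shifts. There CiLC against LC turned for Slc3a2 (0.0151) and Slc36a1 (0.0179), and Slc36a1 in CiLC against MEF (adjusted p = 0.00606) and Slc3a2 in LC against MEF (0.00104) became called. At an assumed coefficient of variation of 0.1, members higher in CiLC than in MEF numbered 9 in place of 15. The named calls lost there in CiLC against MEF were Slc1a4, Slc3a2, Slc6a6, Slc6a9, Slc7a1, Slc36a4 and Slc43a2. In LC against MEF they were Slc36a1 and Slc38a2, and in CiLC against LC they were Slc3a2, Slc7a11 and Slc36a1. At 0.4, higher and lower members numbered 2 and 3 in CiLC against MEF, 5 and 7 in LC against MEF, and 5 and 6 in CiLC against LC, and of 83 named values 54 calls were lost, since the assumed spread is wider by construction. Leaving out single libraries gave 12 to 15 higher and 12 to 15 lower in CiLC against MEF, 18 to 21 and 16 to 17 in LC against MEF, and 17 to 18 and 18 to 21 in CiLC against LC. A fit with the replicate block gave 15 and 15, 22 and 17, and 18 and 20 members, and the block changed no named call. Same-numbered libraries deviated together with correlations of only 0.0882 (CiLC and MEF), 0.0244 (LC and MEF) and -0.0773 (CiLC and LC). Relative to MEF, family sums with library totals only were 1.38 (Slc1), 0.895 (Slc3), 1.198 (Slc6), 0.901 (Slc7) and 1.11 (Slc38) in CiLC, and 1.13 (Slc1), 0.884 (Slc3), 0.594 (Slc6), 1.51 (Slc7), 2.06 (Slc36), 0.778 (Slc38) and 0.683 (Slc43) in LC. Without the member with the most reads they were 1.13 (Slc1), 1.75 (Slc3), 1.09 (Slc6), 0.926 (Slc7), 1.10 (Slc36), 0.884 (Slc38) and 1.59 (Slc43) in CiLC, and 0.607 (Slc1), 0.783 (Slc3), 1.11 (Slc6), 1.78 (Slc7), 3.73 (Slc36) and 3.18 (Slc43) in LC; what is left of Slc3 is the barely read Slc3a1. Without Slc36a2, an alternative chosen after seeing the data, Slc36 was 1.24 in LC. The other alternatives left each count of called members within 1.5 times its value. Calls among all genes were counted under the main setting only. The member counts under the alternatives thus have no share of all genes beside them.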
